A study of Mus musculus with 20 samples.

Results

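Colonic organoids (colonoids) from WT and Tnfr2-/- mice were followed after passage by mRNA sequencing, and 10 genes of the EGF receptor system were read out in them. The 10 genes were the ligands Ereg, Areg, Hbegf, Tgfa, Btc and Epgn, the receptors Egfr, Erbb2 and Erbb3, and the receptor inhibitor Errfi1. They were chosen by gene symbol out of 35240 symbols in the expression table, and all 10 were among the 13539 symbols with a mean value of at least 1 that entered the tests. The list was chosen with earlier results of these same libraries known, and which values prompted it is not recorded. The differences and adjusted p-values below therefore describe these libraries, and the fact that a member differed is not independent support for the list.

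The EGF family ligands are made as membrane-anchored precursors, are released by ADAM proteases and act on nearby cells through the ErbB receptor tyrosine kinases. EGFR binds all 6 of the ligands above, ERBB2 has no known ligand and works as a partner of the other receptors, and ERBB3 binds neuregulins and signals mainly through such a partner. Receptor activation feeds the RAS-ERK and PI3K pathways. In the intestine this system is known for driving proliferation of crypt cells and for epithelial repair after injury, with epiregulin (Ereg) and amphiregulin (Areg) among the ligands raised during repair.

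The study comprised 20 libraries in 10 groups, namely WT (C57BL/6) and Tnfr2-/- cultures, each collected on 5 days post-passage (DPP), with 2 libraries per group. The days were 1, 2 and 3 DPP, here called early, and 5 and 7 DPP, here called late. Tnfr2-/- mice carry the whole-body Tnfrsf1b tm1Mwm allele on a B6.129S2 background. The cultures came from the colon of 8-week-old animals of both sexes. Crypts of both genotypes had been grown in Matrigel under IntestiCult medium, passaged 5 times and filtered through a mesh before seeding. The study names the 2 libraries of a group biological replicates. The 5 libraries of a genotype that carry the same number in the labels, 1 per day, are here called a replicate, and whether they came from 1 animal is not stated. Tnfrsf1b, the targeted gene, lay between 11.1 and 21.9 in the 10 WT libraries and between 2.71 and 11.5 in the 10 Tnfr2-/- libraries. It was lower in Tnfr2-/- cultures over all days by 1.35 in log2 units (a difference of -1.35 ± 0.17 SE, limma adjusted p = 9.72e-05), and its Tnfr2-/- values were higher on the late than on the early days. The late difference was -0.79 ± 0.20 SE (limma adjusted p = 0.0323). Taken singly, 3, 5 and 7 DPP did not pass (adjusted p = 0.107, 0.211 and 0.203). Which part of the gene these reads came from cannot be seen in the table.

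Values are normalised expression, that is TPM, a transcript abundance per fixed library total, after division by a size factor for each library, summed per gene. They take transcript length into account, so levels of different genes can be set side by side. Depth per library is unknown from the table, which holds no counts, and genes at a few units carry a counting error that cannot be given. Differences are on the log2(value + 1) scale from limma, with p-values adjusted over all 13539 symbols by the Benjamini-Hochberg method, and "called" means an adjusted p under 0.05.

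The cultures were epithelial with a fibroblast share. The 7 epithelial markers were all present, with a summed level between 11635 and 20028. All 9 fibroblast markers were present as well. Of the 6 immune markers, Ptprc, Cd3e, Cd79a and Itgam had a mean under 1, as had Cdh5 and Kdr of the 3 endothelial markers. Values of bulk cultures add up all cells, so that fewer cells of a type and less RNA per cell cannot be told apart. WT replicate 1 stood apart from the other replicates in its goblet markers on both early and late days. Its goblet sums were 140 to 678 early, against 2.75 to 50.2 in the other 9 early libraries, and 1802 at 5 DPP and 1480 at 7 DPP, against 99.1 to 669 in the other 6 late libraries. Its late absorptive colonocyte sums of 965 and 904 also lay above the 302 to 396 of the other late libraries. Calls of the 10 genes that change without this replicate, or without its late libraries, are given below.

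Over all 20 libraries Areg, which encodes amphiregulin, was the ligand with the highest level and ranged from 284 to 602. It made up 45.9% to 73.3% of the summed ligand expression. Ereg came second with 32.2 to 436, or 7.96% to 40.4% of the sum. Hbegf, Btc and Tgfa stayed between 21.4 and 56.9, while Epgn, which encodes epigen, never passed 9.14 and was listed at 0 in 1 library. Among the receptors, Egfr ranged from 25.1 to 85.2, Erbb2 from 14.99 to 38.8 and Erbb3 from 16.2 to 58.0. The ranges of Hbegf, Btc, Tgfa and the 3 receptors overlapped, so no order among these 6 genes is given.

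Ereg was the member that differed most between genotypes, and the difference depended on the day. On the forward strand of chromosome 5 (chr5:91074622-91093646 in GRCm38, the assembly also called mm10), the gene had a single transcript in the table, so no choice among isoforms enters its value. WT replicate 1 had 326, 201, 59.9, 32.2 and 129 at 1, 2, 3, 5 and 7 DPP, and WT replicate 2 had 305, 179, 79.8, 46.3 and 63.9. Tnfr2-/- replicate 1 had 263, 152, 165, 436 and 269.96, and Tnfr2-/- replicate 2 had 268, 172, 164, 389.6 and 234. In both genotypes the level was high just after passage and lower at 2 DPP. WT cultures then went on down to their lowest level at 5 DPP, whereas both Tnfr2-/- cultures reached their highest level on that day. The Tnfr2-/- pair was lower than the WT pair, without overlap, at 1 and 2 DPP and higher at 3, 5 and 7 DPP. Pairs that did not overlap were frequent, at 44.7% of all tested symbols at 5 DPP, the only single day counted.

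**Figure D1:**
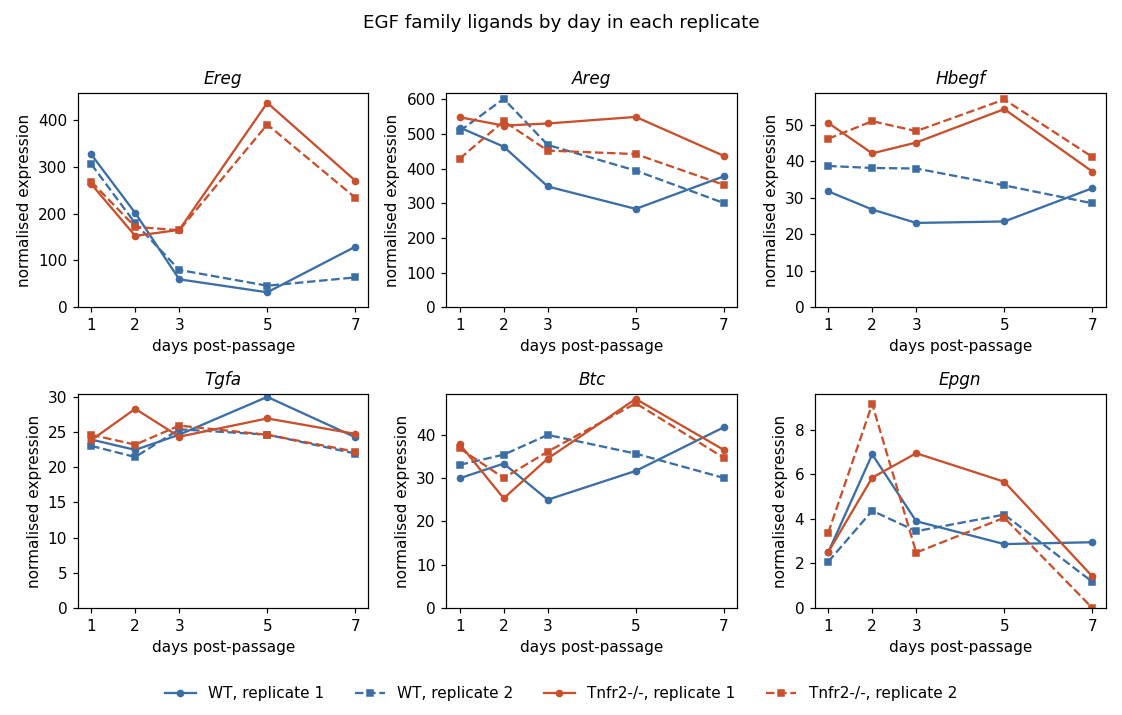
Normalised expression of the 6 EGF family ligands (y axes, each from 0) against days post-passage (x axes) for the 2 WT replicates (blue) and the 2 Tnfr2-/- replicates (orange), 1 point per library. Ereg separates at 5 DPP, with WT at 32.2 and 46.3 and Tnfr2-/- at 436 and 389.6, Hbegf is higher in Tnfr2-/- on each day, and Tgfa lies between 21.4 and 30.0 throughout.

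At 5 DPP Ereg was 10.4-fold higher in Tnfr2-/- cultures on the log2(value + 1) scale (log2 difference 3.38 ± 0.26 SE, adjusted p = 6.31e-05), which ranked 1 by p among all tested symbols, where 1.65% were called. This call was kept without any single library, and was lost without Tnfr2-/- replicate 1 (adjusted p = 0.066) or replicate 2 (0.0539) on all its days. In these 2 fits 0.0443% and 0.00739% of all symbols were called, and the spread came from the WT pairs alone. At 7 DPP the log2 difference was 1.46 ± 0.26 SE (adjusted p = 0.0235, with 0.82% of all symbols called). It was 1.35 without Tnfr2-/- replicate 1 and 1.56 without replicate 2, whether only on that day or on all days. Without WT replicate 2 at 7 DPP it was 0.95. In none of these fits, which left 1 library in a group, was it called. At 3 DPP it was 1.24 ± 0.26 SE and did not pass the threshold (adjusted p = 0.0915, against 0.155% called). It passed without WT replicate 1 (adjusted p = 0.0333) or its late libraries (0.00397), without WT replicate 2 (0.00471) and without either WT library of 7 DPP (0.0135 and 0.0133). The differences at 1 and 2 DPP were -0.25 and -0.23, also short of the threshold, on days when 0.0739% and 0.096% of all symbols were called. No other member was called on any single day. Without WT replicate 2, Hbegf, Egfr, Erbb2 and Errfi1 passed at 5 DPP as well, with adjusted p of 0.00614, 0.0429, 0.0393 and 0.0175. The spread in that fit came from the Tnfr2-/- pairs alone, and it called 8.46% of all symbols at 5 DPP in place of 1.65%. Hbegf at 5 DPP (0.96, adjusted p = 0.066) also passed without either WT library of 3 DPP (0.0374 each) or WT replicate 2 at 5 DPP (0.036), and at 3 DPP it passed without WT replicate 2 (0.0345).

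Averaged over the late days, Ereg was 67.9 ± 42.9 (SD, n = 4 libraries of 2 replicates) in WT and 332 ± 95.9 (SD, n = 4 libraries of 2 replicates) in Tnfr2-/- cultures, with no overlap. The log2 difference was 2.42 ± 0.18 SE, a 5.35-fold difference (adjusted p = 1.12e-05). This call was kept without any single library and without any single replicate, but not when the replicate means were compared 2 against 2 (adjusted p = 0.119). In that fit the log2 difference stayed at 2.42 and 0 of all tested symbols were called. On the early days the means were 192 ± 110 (SD, n = 6 libraries) in WT and 197 ± 53.0 (SD, n = 6 libraries) in Tnfr2-/- cultures, with a log2 difference of 0.25 ± 0.15 SE (adjusted p = 0.528). The late effect exceeded the early one by 2.17 ± 0.24 SE (interaction, adjusted p = 0.00483), which ranked 1 of all 13539 symbols, of which 0.148% were called. On replicate means the interaction stayed at 2.17 and was not called (adjusted p = 0.258), in a fit that called 0 of all tested symbols. It was 2.04 without Tnfr2-/- replicate 1 and 2.29 without replicate 2, and was called in neither fit. In those fits the remaining Tnfr2-/- library of a day is assumed to vary like the WT pairs. The all-day difference of Ereg (1.12 ± 0.33 SE) passed only narrowly (adjusted p = 0.0491). It did not pass in 13 of the 20 fits that each left out 1 library, nor without the late libraries of WT replicate 1 (adjusted p = 0.097), nor in any of the 4 fits that left out a whole replicate (0.105 to 0.242).

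Hbegf, which encodes heparin-binding EGF-like growth factor, was higher in Tnfr2-/- cultures on every day. WT replicate 1 had 31.8, 26.8, 23.1, 23.5 and 32.6 over the 5 days, and WT replicate 2 had 38.7, 38.1, 38.0, 33.4 and 28.5. The Tnfr2-/- replicates had 50.5, 42.1, 45.1, 54.3 and 37.2 (replicate 1) and 46.1, 51.0, 48.2, 56.9 and 41.2 (replicate 2). On each of the 5 days both Tnfr2-/- libraries lay above both WT libraries, and the 6 early and the 4 late libraries of the genotypes did not overlap either, which held for 1.28% and 11.4% of all tested symbols. The all-day log2 difference was 0.58 ± 0.11 SE, or 1.499-fold (adjusted p = 0.0033). The call was kept without any single library, and was lost on replicate means (adjusted p = 0.342) and without Tnfr2-/- replicate 1 (0.059) or replicate 2 (0.121).

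For Hbegf the late and early differences were alike in size, with 0.66 ± 0.17 SE late (adjusted p = 0.0364) and 0.54 ± 0.14 SE early (adjusted p = 0.0889). The early difference passed without WT replicate 2 (adjusted p = 0.00466, in a fit that called 5.32% of all symbols) or its library of 3 DPP (0.0341). The gap between them was 0.12 ± 0.22 SE (interaction, adjusted p = 0.874), so a day dependence like that of Ereg was not detected, and the 2 ligands were not tested against each other. On replicate means the late difference stayed at 0.66 and was not called (adjusted p = 0.25), in a fit that called 0 of all symbols. It was 0.71 without Tnfr2-/- replicate 1 and 0.60 without replicate 2, also not called, with 1 Tnfr2-/- library left per day. The late call did not pass without the 2 late libraries of WT replicate 1 (adjusted p = 0.161) and was kept in only 9 of the 20 fits that each left out 1 library. Leaving out WT replicate 1 at 5 DPP gave the largest p of these (0.157).

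The members called for genotype were Ereg and Hbegf. Over all days 2 of 10 were called, both higher in Tnfr2-/- cultures, where 7.6% of all symbols were called. At the late days 2 of 10 were called, against 6.45%, and at the early days 0 of 10 were called by limma, against 1.2%, with 1 of 10 (Hbegf) at an unadjusted p under 0.05. The median log2 difference of the 10 members was 0.22 at the late days, against -0.05 over all tested symbols. The late libraries of 2 of 10 members, Ereg and Hbegf, did not overlap between genotypes, against 11.4% of all tested symbols. At 5 DPP the same was seen for 5 of 10, with Areg, Btc and Errfi1 added, against 44.7% of all tested symbols.

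**Figure D2:**
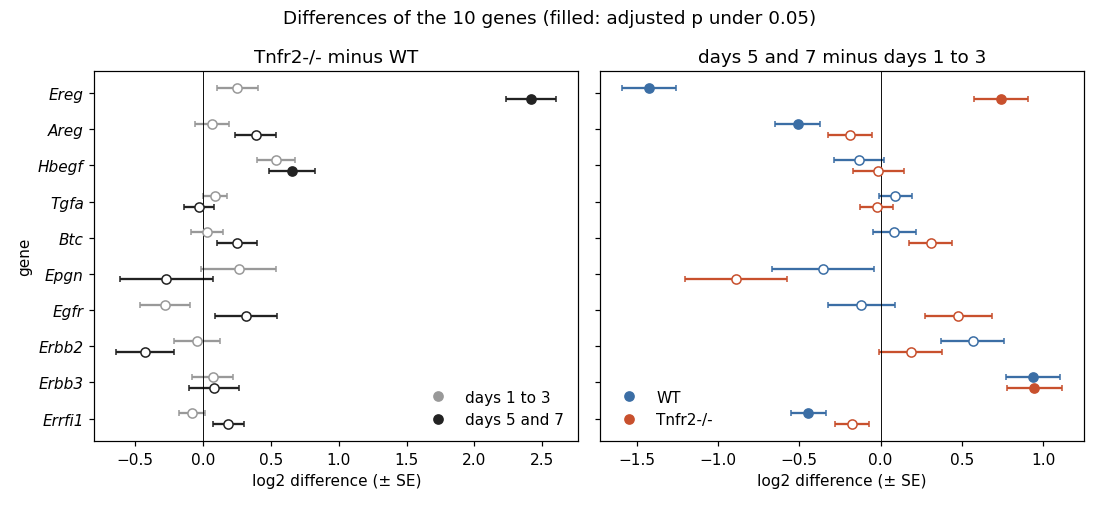
Log2 difference ± SE (x axes) of the 10 genes (y axis), as Tnfr2-/- minus WT at the early and late days (left) and as late minus early days within each genotype (right), with filled points for an adjusted p under 0.05. Ereg lies at 2.42 for the late days and at 0.25 for the early days, and it points in opposite directions in time, at -1.42 in WT and 0.74 in Tnfr2-/- cultures.

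Areg fell with time in WT cultures. Its 5 values were 519, 464, 349, 284 and 378 in WT replicate 1 and 509, 602, 469, 395 and 301 in WT replicate 2. In Tnfr2-/- replicate 1 they were 549, 525, 531, 549.7 and 437, and in Tnfr2-/- replicate 2 they were 429, 537, 452, 442 and 354. From the early to the late days Areg went from 485 ± 83.2 (SD, n = 6) to 339.6 ± 54.9 (SD, n = 4) in WT, a log2 change of -0.51 ± 0.14 SE (adjusted p = 0.0196). The call was lost without WT replicate 1 at 5 DPP (adjusted p = 0.101), WT replicate 2 at 3 DPP (0.0508) or WT replicate 2 at 7 DPP (0.0666). It was also lost without both late libraries of WT replicate 1 (adjusted p = 0.0914) and in each of the 4 fits that left out a whole replicate (0.0571 to 0.1). The change in Tnfr2-/- cultures was -0.19 ± 0.14 SE (adjusted p = 0.382), and the genotypes were not shown to differ in this change (interaction 0.32 ± 0.19 SE, adjusted p = 0.55). At 5 DPP both Tnfr2-/- libraries lay above both WT libraries, and the log2 difference of 0.56 ± 0.21 SE did not pass (adjusted p = 0.216).

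Epgn, Ereg, Areg and Btc lie within 376 kb of each other on chromosome 5, from 91027464 to 91402994. Areg (chr5:91139599-91148432, forward strand) starts 46 kb beyond the end of Ereg. At 5 DPP the log2 differences between genotypes were 3.38 for Ereg, 0.56 for Areg, 0.50 for Btc and 0.37 for Epgn, with an SE of 0.26, 0.21, 0.21 and 0.48. For each of these 4 genes it was the most positive difference of the 5 days, and the genes were not tested against each other. Over the 20 libraries Ereg correlated with Areg at r = 0.658, with Btc at 0.421 and with Epgn at -0.012 (Pearson, on log2 values). The libraries share days and replicates, so these correlations are descriptions.

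Promoter windows from RefSeq on GRCm38.p6 (250 bases before to 50 after a transcription start) were at hand for 7 of the 10 members, with 8 windows in all, and Ereg, Hbegf and Erbb3 were not among them. They were searched on both strands for the full cAMP response element TGACGTCA, which CREB family factors bind, and for the AP-1 motif TGANTCA, which FOS and JUN factors bind at the end of the ERK pathway. The letters of these 2 motifs do not contain each other. The first was found in 2 of the 8 windows, those of Areg and Errfi1, against 1.79% of 32851 promoters, and the second in 0 of 8, against 7.81%. The 2 windows that hold the full element are printed here with it in capitals, 61 bases before the start in Areg (chr5:91139349-91139648, forward strand) and 51 bases before it in Errfi1 (chr4:150854820-150855119, forward strand). A match of letters is a description of the sequence and was not tested as a binding site.
Areg: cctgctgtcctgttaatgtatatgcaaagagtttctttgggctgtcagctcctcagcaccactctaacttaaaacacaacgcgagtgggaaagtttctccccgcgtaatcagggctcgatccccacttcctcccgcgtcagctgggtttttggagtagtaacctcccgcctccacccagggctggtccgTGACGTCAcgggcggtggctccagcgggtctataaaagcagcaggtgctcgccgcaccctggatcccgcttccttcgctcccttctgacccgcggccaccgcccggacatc
Errfi1: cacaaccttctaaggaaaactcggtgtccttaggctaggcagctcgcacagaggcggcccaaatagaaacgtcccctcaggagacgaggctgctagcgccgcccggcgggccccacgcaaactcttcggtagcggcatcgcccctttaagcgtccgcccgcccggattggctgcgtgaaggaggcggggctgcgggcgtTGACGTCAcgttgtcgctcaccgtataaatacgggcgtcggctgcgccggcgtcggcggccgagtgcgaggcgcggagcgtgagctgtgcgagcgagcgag

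Tgfa (chr6:86195223-86275719, forward strand), which encodes transforming growth factor alpha, stayed within 21.4 to 30.0. It lay at 24.2 ± 2.4 (SD, n = 10) in WT and 24.9 ± 1.8 (SD, n = 10) in Tnfr2-/- cultures, with an all-day log2 difference of 0.04 ± 0.07 SE (adjusted p = 0.761). Btc, which encodes betacellulin, was 33.6 ± 4.9 in WT and 36.7 ± 6.9 in Tnfr2-/- cultures (SD, n = 10 each), and its all-day difference was 0.12 ± 0.10 SE (adjusted p = 0.542). Late against early in Tnfr2-/- cultures Btc changed by 0.31, which passed only without WT replicate 1 (adjusted p = 0.0308) or replicate 2 (0.0314). At 5 DPP the Btc values of 31.7 and 35.6 in WT and 48.3 and 47.3 in Tnfr2-/- cultures did not overlap, and the log2 difference of 0.50 ± 0.21 SE did not pass (adjusted p = 0.256). Epgn was at 1.18 to 6.89 in WT and 0 to 9.14 in Tnfr2-/- cultures, levels too low to read without the depth. Its late against early change in Tnfr2-/- cultures was -0.89 ± 0.31 SE (adjusted p = 0.0603). It passed without Tnfr2-/- replicate 2 at 3 DPP (adjusted p = 0.0278), without Tnfr2-/- replicate 1 at 7 DPP (0.0271) and with libraries rescaled to 1 sum (0.0451).

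**Figure D3:**
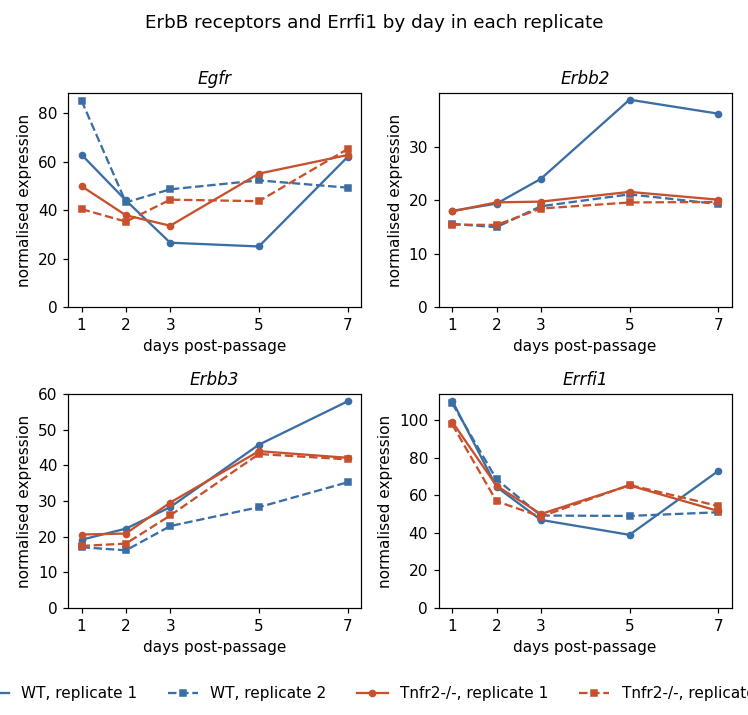
Normalised expression of Egfr, Erbb2, Erbb3 and Errfi1 (y axes, each from 0) against days post-passage (x axes), 1 point per library, for the 2 WT replicates (blue) and the 2 Tnfr2-/- replicates (orange). Erbb3 is higher late in both genotypes, Erbb2 is above 36 in WT replicate 1 at 5 and 7 DPP only, and Errfi1 is highest at 1 DPP, between 97.7 and 110.3.

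Erbb3 (chr10:128567523-128589652, reverse strand) rose with time in both genotypes. The WT replicates had 19.1, 22.3, 28.3, 45.8 and 58.0 (replicate 1) and 17.1, 16.2, 23.0, 28.3 and 35.3 (replicate 2). The Tnfr2-/- replicates had 20.6, 20.9, 29.6, 44.0 and 42.1 (replicate 1) and 17.4, 18.1, 26.0, 43.2 and 41.7 (replicate 2). In Tnfr2-/- cultures each late library lay above each early library, while in WT the lowest late value equalled the highest early value to the decimal given. The log2 change was 0.94 ± 0.17 SE in WT (adjusted p = 0.00208) and 0.95 ± 0.17 SE in Tnfr2-/- cultures (adjusted p = 0.00176), 1.91-fold and 1.93-fold. The genotypes differed in this change by 0.01 ± 0.23 SE (adjusted p = 0.992). The WT change was 0.59 without the late libraries of WT replicate 1. In Tnfr2-/- cultures the change was 1.04 without Tnfr2-/- replicate 1 and 0.85 without replicate 2. It was called in neither of these 2 fits, which left 1 Tnfr2-/- library per day.

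Erbb2 (chr11:98412470-98437716, forward strand) showed a spread between the WT replicates. WT replicate 1 had 18.0, 19.4, 24.0, 38.8 and 36.2, while WT replicate 2 had 15.6, 14.99, 18.9, 21.1 and 19.3. The 10 Tnfr2-/- values lay between 15.4 and 21.6. The late against early change in WT was 0.57 ± 0.19 SE (adjusted p = 0.0532), and it passed when only symbols with a mean of at least 5 were tested (adjusted p = 0.0461). It passed without WT replicate 2 (adjusted p = 0.00854), or without its library of 5 DPP (0.0138) or 7 DPP (0.0113). Without the 2 late libraries of WT replicate 1 it was 0.14 (adjusted p = 0.655). In Tnfr2-/- cultures the change was 0.18 ± 0.19 SE (adjusted p = 0.556), and the late genotype difference was -0.43 ± 0.21 SE (adjusted p = 0.248). This difference turned on which WT replicate was kept: it was 0.0029 without WT replicate 1 and -0.86 without WT replicate 2, where it was called (adjusted p = 0.00748) along with 16.1% of all symbols. The all-day difference was -0.20 and was called only without WT replicate 2 (-0.46, adjusted p = 0.0324). Without single libraries the late difference ranged from -0.65 to -0.21.

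Egfr (chr11:16752203-16918158, forward strand), the receptor of all 6 ligands, was not called in any comparison of all libraries. WT replicate 1 had 62.9, 44.1, 26.7, 25.1 and 62.0 and WT replicate 2 had 85.2, 43.3, 48.7, 52.3 and 49.4. Tnfr2-/- replicate 1 had 49.9, 38.0, 33.7, 55.1 and 62.8 and Tnfr2-/- replicate 2 had 40.5, 35.4, 44.4, 43.8 and 65.2. The Tnfr2-/- pair was lower than the WT pair at 1 and 2 DPP and higher at 7 DPP, without overlap. With 2 libraries against 2 this is frequent: at 5 DPP it held for 44.7% of all tested symbols, and other single days were not counted. The late genotype difference was 0.32 ± 0.23 SE (adjusted p = 0.441), the early one -0.28 ± 0.18 SE (adjusted p = 0.579) and the interaction 0.60 ± 0.29 SE (adjusted p = 0.451). Late against early in Tnfr2-/- cultures it changed by 0.48 (adjusted p = 0.122), which passed without WT replicate 1 (adjusted p = 0.0212) or replicate 2 (0.0218).

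Errfi1, also called Mig6, encodes an inhibitor that binds the kinase domain of activated EGFR and is itself induced by ERK signalling. It was highest at 1 DPP in all 4 replicates. The 5 values were 110.3, 64.4, 46.9, 38.9 and 72.9 in WT replicate 1 and 109, 68.5, 49.2, 49.0 and 50.9 in WT replicate 2. They were 99.1, 65.0, 50.004, 65.2 and 51.6 in Tnfr2-/- replicate 1 and 97.7, 56.8, 48.6, 65.4 and 54.3 in Tnfr2-/- replicate 2. From early to late days Errfi1 fell by 0.44 on the log2 scale in WT (SE 0.11, adjusted p = 0.0108), a call lost without WT replicate 1 at 5 DPP (adjusted p = 0.0535) and without Tnfr2-/- replicate 1 (0.0782) or replicate 2 (0.0781), and kept without both late libraries of WT replicate 1 (0.011). The change in Tnfr2-/- cultures was -0.18 ± 0.11 SE (adjusted p = 0.273) and the interaction 0.27 ± 0.15 SE (adjusted p = 0.519). At 5 DPP the Tnfr2-/- libraries, at 65.2 and 65.4, lay above the WT libraries, at 38.9 and 49.0, with a log2 difference of 0.57 ± 0.16 SE (adjusted p = 0.105). This difference passed without either WT library of 7 DPP (0.0462 and 0.0458). Over all days the difference between genotypes was 0.03 ± 0.09 SE (adjusted p = 0.904).

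In time, 4 of 10 members were called late against early in WT cultures, with Erbb3 rising and Ereg, Areg and Errfi1 falling, where 20.1% of all symbols were called. The Ereg change in WT was -1.42 ± 0.17 SE (adjusted p = 1.88e-04), from 192 to 67.9, a 2.68-fold fall. Late against early in Tnfr2-/- cultures, 2 of 10 members were called, Erbb3 and Ereg, both rising, against 20.3% of all symbols. There Ereg changed by 0.74 ± 0.17 SE (adjusted p = 0.00746), from 197 to 332. That change was 0.62 without Tnfr2-/- replicate 1 and 0.87 without replicate 2. It was called in neither fit, each of which left 1 Tnfr2-/- library per day. The median log2 change of the members was -0.13 in WT and 0.09 in Tnfr2-/- cultures, against 0.02 over all tested symbols in each.

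The summed ligand expression was 404 to 609 in the 4 late WT libraries and 686 to 1121 in the 4 late Tnfr2-/- libraries. At 5 DPP Ereg made up 7.96% and 8.58% of the sum in WT and 38.9% and 40.4% in Tnfr2-/- cultures. Areg still held the larger share there, at 49.1% and 45.9%.

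Most members rested wholly or mainly on 1 transcript. Ereg, Areg, Hbegf and Erbb3 had 1 listed transcript each, and the leading transcript held 97.7% of Tgfa, 93.9% of Btc and 83.7% of Epgn. For Epgn this share ranged from 40.9% to 100% over the libraries. Erbb2 was divided between a coding transcript (43.5%) and a transcript annotated as processed, without a coding frame (54.1%). For Egfr the full-length coding transcript of 10208 bases held 47.3%, a shorter coding one of 2943 bases 29.6% and a processed one 21.8%. Errfi1 was divided between 2 coding transcripts of 3043 and 3036 bases that start at 150855073 and 150853919 on chromosome 4, the first of them inside the window printed above. Their shares ranged from 0.134% to 97.7% and from 0.0483% to 97.5% over the libraries, and 2 transcripts this alike can exchange reads when quantified. The sum over transcripts is therefore the value used.

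Other EGF family genes were mostly absent. Egf had a mean under 1 with at most 2.29 in a library, Nrg4 had at most 1.74, and Nrg2, Nrg3 and Erbb4 were at or near 0 in every library. Nrg1, which encodes the neuregulin ligand of ERBB3, was the only other one tested. WT replicate 1 had 113, 82.8, 52.9, 21.2 and 60.5 and WT replicate 2 had 185, 129.9, 96.9, 60.6 and 69.8. The Tnfr2-/- replicates had 77.1, 58.0, 59.3, 88.6 and 76.8 (replicate 1) and 88.3, 50.4, 56.1, 92.9 and 82.5 (replicate 2). Its late against early change was -1.07 ± 0.26 SE in WT (adjusted p = 0.0111) and 0.41 ± 0.26 SE in Tnfr2-/- cultures (adjusted p = 0.292). The interaction of 1.48 ± 0.36 SE did not pass (adjusted p = 0.152).

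In the wider pathway, the late genotype effect was called for 6 genes of the lists below, where 6.45% of all symbols were called. In the list of 11 genes of ligand shedding and trafficking, 2 were higher in Tnfr2-/- cultures and 0 lower: Adam10, a protease that releases several EGF family ligands (0.39 ± 0.10 SE, adjusted p = 0.0276), and Adam19 (1.06 ± 0.26 SE, adjusted p = 0.0276). Adam9 (0.32 ± 0.07 SE, adjusted p = 0.00984) and Adam12 (0.94 ± 0.22 SE, adjusted p = 0.016) were called over all days. The median late difference of this list was 0.16. Of 21 adaptors and proximal effectors, 2 were higher and 1 lower, with a median of -0.04. Pik3ca (0.84 ± 0.19 SE, adjusted p = 0.0203) and Map2k1 (0.47 ± 0.12 SE, adjusted p = 0.032) were higher, and Pik3r1, the regulatory subunit of PI3K, was lower (-0.93 ± 0.20 SE, adjusted p = 0.0176). Of 14 receptor inhibitors and turnover factors, 0 were called by limma at the late days and 2 had an unadjusted p under 0.05, with a median of -0.11, and Lrig3 was nearest (-0.75, adjusted p = 0.0705).

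Among 10 target genes of the ERK pathway, 1 was called at the late days, against the same 6.45%. At the early days 1 was called higher as well, against 1.2% of all symbols, and 1 over all days, against 7.6%. Dusp4, a phosphatase induced by ERK that acts on MAP kinases, was higher in Tnfr2-/- cultures, with 129 and 130.6 at 5 DPP against 26.4 and 53.5 in WT (late difference 1.33 ± 0.20 SE, adjusted p = 0.00203). On the early days it was already apart, at 19.6 to 40.0 in WT and 42.3 to 55.9 in Tnfr2-/- libraries. The other 9 did not pass, among them Dusp6 (-0.04), Spry2 (0.36), Spry4 (0.40), Etv4 (0.13), Etv5 (-0.46) and Phlda1 (0.34). The rest were Ccnd1, Epha2 and Epha4. At 7 DPP their WT values were 147 and 174, 76.6 and 75.6, and 14.5 and 14.0. Their Tnfr2-/- values on that day were lower, at 118 and 114, 61.8 and 66.8, and 13.5 and 12.6. At 5 DPP the genotypes overlapped for each of them. Of the 10 targets, 3 had an unadjusted limma p under 0.05 at the late days. The median of the list was 0.04.

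**Figure D4:**
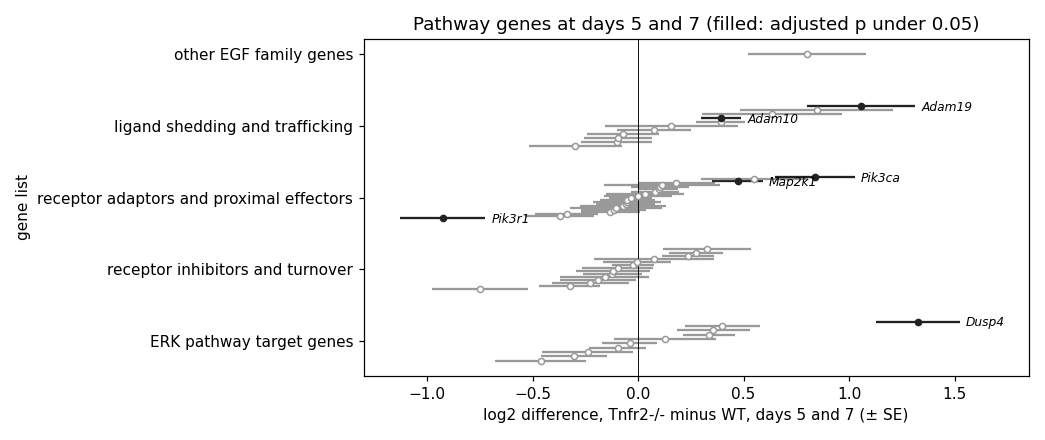
Log2 difference ± SE between Tnfr2-/- and WT cultures at the late days (x axis) for each tested gene of 5 pathway lists (y axis), with filled and named points for an adjusted p under 0.05. Of the named genes Dusp4 lies at 1.33, Adam19 at 1.06 and Pik3r1 at -0.93, and the remaining genes lie on both sides of 0.

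In time, the ERK target list had 1 gene higher and 3 lower of 10 late in WT cultures and 1 higher and 2 lower in Tnfr2-/- cultures, where 20.1% and 20.3% of all symbols were called. Epha2 (-0.98), Ccnd1 (-0.57) and Spry4 (-0.63) fell and Dusp4 (1.01) rose, with adjusted p of 2.63e-04, 0.0127, 0.0153 and 0.00217. In Tnfr2-/- cultures Epha2 (-1.16) and Ccnd1 (-1.12) fell and Dusp4 (1.56) rose, with adjusted p of 9.81e-05, 2.24e-04 and 1.43e-04. Of the 14 inhibitors and turnover factors, 4 were higher late in WT, against 20.1% of all symbols, namely Ptprj (0.85), Cblc (0.69), Cbl (0.62) and Cblb (0.55), with adjusted p of 9.23e-04, 0.00851, 0.0194 and 0.0322, and 0 were lower. The Cbl genes encode ubiquitin ligases that send activated EGFR to degradation. In Tnfr2-/- cultures 1 of the 14, Ptprj (0.55, adjusted p = 0.0104), was higher late.

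Among the 21 adaptors and effectors, 3 were higher and 3 lower late in WT, and 5 were called in Tnfr2-/- cultures, against the same 20.1% and 20.3%. Gab1 (0.86), Plcg1 (0.66) and Mapk3 (0.52) rose, with adjusted p of 0.00369, 0.00736 and 0.0125, and Hras (-0.74), Pik3cb (-0.61) and Pik3ca (-0.60) fell, with adjusted p of 0.00189, 0.0209 and 0.026. In Tnfr2-/- cultures 4 of these were higher and 1 lower: Plcg1 (0.64), Gab2 (0.87), Pik3ca (0.61) and Map2k1 (0.35) rose and Hras fell by 0.77, with adjusted p of 0.00801, 0.0179, 0.0235, 0.0372 and 0.00128. Of the shedding list, Adam10 rose in WT (0.35, adjusted p = 0.014) and in Tnfr2-/- cultures (0.69, adjusted p = 2.23e-04), and Adam19 rose in Tnfr2-/- cultures (1.101, adjusted p = 0.00538).

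Some fibroblast markers were higher in the late Tnfr2-/- libraries, as Ereg was. Dcn was 135 and 297 in WT and 1493 and 1573 in Tnfr2-/- cultures at 5 DPP, with a late difference of 2.74 ± 0.22 SE (adjusted p = 2.16e-05) and an interaction of 1.81 ± 0.29 SE (adjusted p = 0.0403). Of the 9 fibroblast markers, 2 were called higher in Tnfr2-/- cultures at the late days, Dcn and Vim, 0 lower, against 6.45% of all symbols, and the median difference was 0.94. Vim (1.69 ± 0.34 SE, adjusted p = 0.0122) was not called without either Tnfr2-/- replicate (0.204 and 0.309) or without the late libraries of WT replicate 1 (0.126). Over all days 3 of 9 were called higher, against 7.6% of all symbols, namely Dcn (1.65 ± 0.26 SE, adjusted p = 0.00101), Vim (1.04 ± 0.23 SE, adjusted p = 0.0121) and Thy1 (1.37 ± 0.32 SE, adjusted p = 0.0156). Dcn was called on the early days as well (0.93 ± 0.18 SE, adjusted p = 0.0242). Without WT replicate 1 the all-day calls of Vim and Thy1 (adjusted p = 0.144 and 0.176) and the early call of Dcn (0.0586) were lost. The all-day call of Vim was also lost without Tnfr2-/- replicate 1 (0.0635) or replicate 2 (0.236), and the early call of Dcn likewise (0.339 and 0.555). Thy1 went from 2.59-fold to 4.56-fold without Tnfr2-/- replicate 1, and to 1.47-fold without replicate 2, where it was not called. The summed level of the 9 markers was 1225 to 3978 in late WT and 3694 to 8496 in late Tnfr2-/- libraries, and 2071 to 4238 against 3116 to 4648 on the early days. At 5 DPP the sums were 1225 and 3281 in WT against 3694 and 5077 in Tnfr2-/- cultures. The most abundant markers weigh most in a sum, as Col3a1 did with 1446 of the 3281 in WT replicate 2. From 5 to 7 DPP the sums went up to 7878 and 8496 in Tnfr2-/- cultures while Ereg went down to 269.96 and 234. In WT both went up between these days, the sums from 1225 to 1796 and from 3281 to 3978 and Ereg from 32.2 to 129 and from 46.3 to 63.9. Of the 2 immune markers tested, Csf1r was higher in Tnfr2-/- cultures over all days (0.76 ± 0.20 SE, adjusted p = 0.0285), a call lost without WT replicate 1 (0.0983) or either Tnfr2-/- replicate (0.148 and 0.29), at levels of 0.301 to 6.42. The late immune sums were 4.38 to 6.30 in WT and 6.52 to 8.32 in Tnfr2-/- libraries. The part of fibroblasts and immune cells in the Ereg, Hbegf and Nrg1 values was not tested.

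**Figure D5:**
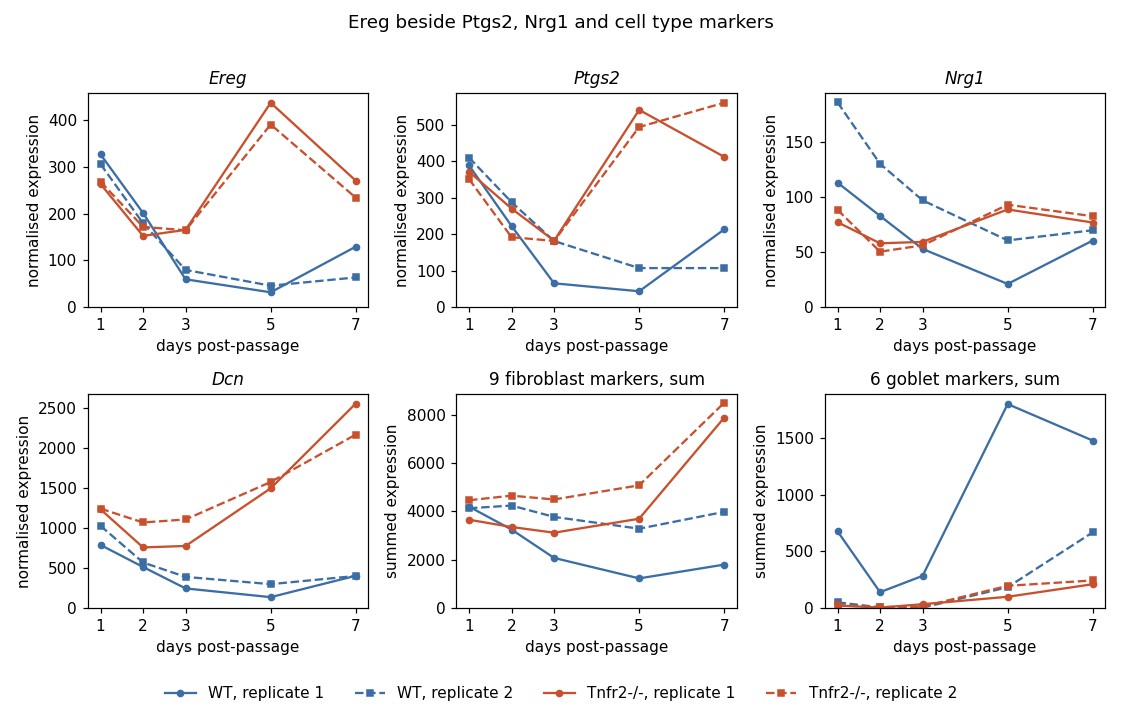
Ereg, Ptgs2, Nrg1 and Dcn (normalised expression) and the summed levels of 9 fibroblast and 6 goblet markers (y axes, each from 0) against days post-passage (x axes), 1 point per library, for the 2 WT replicates (blue) and the 2 Tnfr2-/- replicates (orange). Between 5 and 7 DPP the fibroblast sum goes up to 7878 and 8496 in Tnfr2-/- cultures while Ereg goes down, in WT cultures both go up, and the goblet sum of WT replicate 1 stands at 1802 and 1480.

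Among the epithelial markers, Car1, a carbonic anhydrase of absorptive colonocytes, was lower in Tnfr2-/- cultures. Its late values were 130.1 to 789 in WT and 6.14 to 20.4 in Tnfr2-/- libraries, a 26.6-fold difference (log2 difference -4.73 ± 1.19 SE, adjusted p = 0.0315), and it was called over all days too (-3.02 ± 0.75 SE, adjusted p = 0.0206). Car1 was high in WT replicate 1 on the early days too, at 44.8 to 279, while WT replicate 2 had 1.88 to 4.98 and the Tnfr2-/- libraries 0.974 to 15.9. The all-day call was lost without either Tnfr2-/- replicate (0.174 and 0.224) or the late libraries of WT replicate 1 (0.0703). Without WT replicate 1 the all-day difference was -1.27 (adjusted p = 0.348) and the late one -3.88, or 14.7-fold (adjusted p = 2.48e-04). The late call was lost without only the late libraries of that replicate (0.217) and without either Tnfr2-/- replicate (0.355 and 0.398). Car1 was the only 1 of the 5 absorptive markers called in either comparison, against 6.45% of all symbols late and 7.6% over all days, and their late sums were 302 to 965 in WT and 323 to 374 in Tnfr2-/- libraries. Over all days the goblet marker Fcgbp was lower in Tnfr2-/- cultures (-1.54 ± 0.44 SE, adjusted p = 0.0402), and without WT replicate 1 its difference was -0.40 (adjusted p = 0.476). This call was also lost without the late libraries of WT replicate 1 (0.117) or either Tnfr2-/- replicate (0.28 and 0.236). Cdh1 (0.25 ± 0.06 SE, adjusted p = 0.0221) and Epcam (0.36 ± 0.10 SE, adjusted p = 0.0335) were higher, and neither was called without WT replicate 2 (0.0888 and 0.192), without Tnfr2-/- replicate 1 (0.239 and 0.298) or without Tnfr2-/- replicate 2 (0.121 and 0.149). Goblet marker sums were 184 to 1802 in late WT and 99.1 to 244 in late Tnfr2-/- libraries, and 0 of 5 tested goblet markers were called at the late days by limma, against the same 6.45%, with 3 at an unadjusted p under 0.05. Epithelial marker sums were 14666 to 18106 in late WT and 13105 to 18642 in late Tnfr2-/- libraries, with 0 of 7 called by limma and 3 at an unadjusted p under 0.05. All 4 cycling markers fell from early to late days in both genotypes, with a median log2 change of -0.71 in WT and -1.07 in Tnfr2-/- cultures, where 20.1% and 20.3% of all symbols were called in time, and limma called 0 of these 4 for the late genotype effect, where 3 had an unadjusted p under 0.05. For the 4 crypt stem markers the count was likewise 0, and 1 had an unadjusted p under 0.05. The part of these markers in the values of the 10 genes was not tested.

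Over the 20 libraries, the symbols whose log2 values followed Ereg most closely were Ptgs2 (Pearson r = 0.937), which encodes the inducible cyclooxygenase, Gldn (0.935) and Fst (0.92), which encodes the activin antagonist follistatin. Ptgs2 had 44.2 and 108 in WT and 541 and 494 in Tnfr2-/- cultures at 5 DPP. Areg was followed by S100a10 (0.886), Txnl1 (0.854) and S100a11 (0.838), and Hbegf by Fer (0.897), Irx3 (0.863) and Cstb (0.855). The nearest to Errfi1 were Spry2 (0.901), another feedback inhibitor induced by ERK, Coq10b (0.881) and Hao1 (0.852). Egfr was nearest to Rnd3 (0.896), Filip1l (0.872) and Wnt5a (0.856). Erbb3 was nearest to Slc31a1 (0.967), Slc4a7 (0.965) and St6galnac6 (0.962), and Erbb2 to Prkaa2 (0.928), B4galnt3 (0.925) and Plcb3 (0.918). The nearest to Tgfa were Apopt1 (0.878), Fam126b (0.836) and Rassf7 (0.756), those to Btc were Ctnna1 (0.775), Ankrd50 (0.771) and Actr2 (0.743), and those to Epgn were Fpgs (0.864), Prodh (0.815) and Npm1 (0.788). These libraries share days, replicates and scaling, so the correlations describe them and carry no p-value.

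Among the members themselves, Ereg correlated with Hbegf at 0.68, with Errfi1 at 0.671 and with Egfr at 0.515, and Erbb2 with Erbb3 at 0.759. Areg ran against Erbb2 (-0.637) and Erbb3 (-0.589). These coefficients are over the same 20 libraries and are likewise descriptions.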

How the data were processed

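RNA was measured in 20 libraries (2 biological replicates per genotype on each of 5 days). Per the submitters' processing notes, CASAVA, kallisto and sleuth were used with mm10. The study states stranded single-end libraries. The deposited values are a signal per transcript, which the authors made by dividing TPM by a size factor for each library (sums of 900655 to 1111080). The authors' columns of p-values, q-values and test statistics were not used. Of 113974 lines, 781 repeats were dropped, and 113193 transcripts were summed per symbol. The 199 transcripts without a symbol held at most 0.0989% of a library and were left out.

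Log2(value + 1) values of 13539 of 35240 symbols with a mean of at least 1 entered linear models in limma (version 3.58.1, R 4.3.3) that used a trend of variance on mean, and p-values were adjusted after Benjamini and Hochberg. The all-day genotype effect came from day as a factor plus genotype, and other comparisons from 1 mean per group. The unit needed this fit in place of a count test. Gene positions and transcript types are from GENCODE M21. The 10 genes, the pathway lists and the markers were chosen with earlier results of these data known. Named were all 10 genes, the other EGF family genes, up to 4 called genes of lowest p per pathway list and comparison, and the 3 symbols most correlated with a member. Lrig3, the uncalled ERK targets and the fifth and sixth adaptors in time (Pik3cb, Pik3ca, Map2k1) and the cell type markers called for genotype were named after their values were seen.

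Libraries with the same replicate number and genotype may share an animal, which the sources used here do not state, and they entered as independent. Fits with the replicate number as a block, on replicate means, without single libraries or replicates, and with other filters, scalings and pseudocounts were alternatives. The fit was tested on simulated data.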

Additional observations from a re-analysis of the deposited data

Results flagged for a closer look

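The genotype effect on Ereg differed between phases. The late minus early difference was 2.17 on the log2 scale (adjusted p = 0.00483 in limma over all symbols), from an effect of 0.25 at the early and 2.42 at the late days, with both Tnfr2-/- libraries above both WT libraries at 5 and 7 DPP. Each group of 1 genotype and 1 day held 2 libraries, so none was searched for an outlying library.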

How the results depend on the processing

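Without a filter on low values, and with libraries rescaled to 1 sum, the number of the 10 genes called was 1 in place of 2 both over all days and at the late days, and this rescaling put the median difference of all symbols at -0.116 at the late days. Of all symbols, 3.56% and 8.46% were called over all days in these fits, and 3.49% and 7.11% at the late days. On replicate means, 2 against 2, the number was 0 for the all-day and late effects and 0 for the interaction (1 otherwise). That fit called 0.0517% of all symbols over all days, and 0 symbols at the late days and for the interaction. Its counts of 0 are therefore not particular to the 10 genes. Leaving out WT replicate 1 at 5 and 7 DPP was a choice made after seeing the data. It put the log2 difference at 0.96 for Ereg over all days and at 0.58 for Hbegf at the late days. Neither was called, against 1.12 and 0.66 in the main fit. The deviations of libraries with the same replicate number correlated between days at 0.0997 to 0.307 over 10 pairs of days in WT and at -0.0511 to 0.08 in Tnfr2-/- cultures. In WT all were positive, so WT libraries of the same number deviated together to a degree. The main fits entered them as independent and do not take this up. With the number as a correlated replicate block, 1 of the 10 genes was called over all days, where 4.03% of all symbols were called. The block took the adjusted p of Ereg over all days to 0.113, and for late against early those of Epgn in Tnfr2-/- cultures to 0.0457 and Erbb2 in WT to 0.0275 (0.0495 and 0.00694 as a fixed block). It changed no other call of the 10 genes. Without 1 library or 1 replicate, the count ranged from 0 to 2 over all days and 1 to 3 at the late days. It was 0 to 1 at the early days, 0 to 1 for the interaction and 2 to 5 for time in WT. For time in Tnfr2-/- cultures it was 0 to 4. Over single days it was 0 to 8, and there a gene counted once for each day on which it was called. The counts of 0 over all days, for the interaction, for time in Tnfr2-/- cultures and over single days came without a Tnfr2-/- replicate, which leaves 1 Tnfr2-/- library per day. The cause of these changes was not tested. No called difference changed its sign under any alternative. Depth per library is unknown, so the counting error of low values such as those of Epgn cannot be given.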
